A study of Mus musculus with 16 samples.

Results

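The 9 sarcomeric myosin heavy chain genes of the mouse were followed in lists of open chromatin peaks from 8 tissues of fed and fasting mice. They were taken by name (Myh1, Myh2, Myh3, Myh4, Myh6, Myh7, Myh7b, Myh8 and Myh13) out of 21924 protein-coding genes of the GENCODE vM21 annotation on GRCm38. For each gene, every deposited peak with its summit within 3 kb of an annotated start was collected, and every peak in the gene body extended by 10 kb on both sides. The 4 smooth muscle and nonmuscle myosin heavy chain genes (Myh9, Myh10, Myh11 and Myh14) were not members.

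Open chromatin was measured by ATAC-seq, in which a transposase cuts accessible DNA in nuclei and leaves sequencing adapters there. The mice were adult male C57BL/6 animals with no engineered allele given in the labels, either with food at will (fed) or kept without food for a day (fasting). Liver, muscle, heart, lung, kidney, spleen, brown adipose and white adipose were frozen, and the tissue of several mice of 1 state was pooled, which gave a single library for each tissue in each state (16 libraries). There were no replicates, all tissues of a state came from the same mice, and the labels do not name which skeletal muscle was taken.

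Myosin heavy chain is the motor protein of the thick filament, and the isoform that a fibre makes sets how fast it shortens. Adult limb muscle uses the fast isoforms IIa (Myh2), IIx (Myh1) and IIb (Myh4) and the slow isoform (Myh7), which the ventricle also uses. The adult mouse ventricle makes mainly the alpha isoform (Myh6), while Myh3 and Myh8 are the embryonic and perinatal isoforms, Myh13 is the extraocular isoform, and Myh7b is an ancient relative that hosts a microRNA.

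Each deposited list held 298996 to 299529 peaks. The genome background of a library, the number of tags expected at a place with no enrichment, is proportional to depth and ran from 2.80 to 12.8 tags. Fed muscle had 6.39 tags and fasting muscle 10.6, and the heart libraries had 4.92 and 5.84. The rank of a promoter is the percentile, within its own library, of the strongest peak (by the authors' p) within 3 kb of any start, from 0 where no peak was listed to near 100. Since the lists were limited in length, the weakest peak kept had a -log10 p between 2.48 and 7.11, and a rank of 0 means no listed peak and not closed chromatin. In bulk tissue, fewer cells of a type and less signal per cell cannot be told apart. The 10 skeletal muscle markers had a median promoter rank of 94.6 in fed and 93.6 in fasting muscle, and the 8 heart markers 89.1 and 88.1 in heart, with none of them at 0 in its own tissue. The skeletal muscle markers also had high medians in spleen (93.5 and 86.7), lung (89.99 and 87.9), white adipose (88.2 and 88.8) and heart (87.8 and 84.9), so their promoter ranks alone do not set muscle apart.

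The 6 genes of chromosome 11 lie head to tail on the plus strand in the order Myh3 (chr11:67078300-67102291), Myh2 (67171027-67197517), Myh1 (67200052-67224575), Myh4 (67238029-67260446), Myh8 (67277124-67308634) and Myh13 (67321658-67371586). Myh6 (chr14:54941921-54966927) and Myh7 (chr14:54970684-54994626) are neighbours on the minus strand, and Myh7b (chr2:155611212-155634307) stands alone on the plus strand. All 9 had an upstream window in the RefSeq table of GRCm38.p6. The 250 bases before the RefSeq start are shown for the adult fast genes and the perinatal gene, because these share sequence, and for both cardiac genes as the contrast. Capitals mark matches to the MEF2 consensus, to TATAAA on the plus strand, and to a stretch that several of the windows have in common.
Myh2, chr11:67170777-67171026, plus strand: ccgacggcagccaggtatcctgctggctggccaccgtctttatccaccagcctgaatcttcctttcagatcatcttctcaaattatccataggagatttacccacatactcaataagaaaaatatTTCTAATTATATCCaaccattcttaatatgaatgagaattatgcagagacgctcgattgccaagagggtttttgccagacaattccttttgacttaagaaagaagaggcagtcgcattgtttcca
Myh1, chr11:67199852-67200101, plus strand: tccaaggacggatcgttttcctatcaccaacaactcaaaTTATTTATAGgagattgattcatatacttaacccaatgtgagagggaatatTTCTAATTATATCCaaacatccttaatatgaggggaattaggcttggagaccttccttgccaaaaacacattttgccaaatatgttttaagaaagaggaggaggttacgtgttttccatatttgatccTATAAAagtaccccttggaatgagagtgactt
Myh4, chr11:67237562-67237811, plus strand: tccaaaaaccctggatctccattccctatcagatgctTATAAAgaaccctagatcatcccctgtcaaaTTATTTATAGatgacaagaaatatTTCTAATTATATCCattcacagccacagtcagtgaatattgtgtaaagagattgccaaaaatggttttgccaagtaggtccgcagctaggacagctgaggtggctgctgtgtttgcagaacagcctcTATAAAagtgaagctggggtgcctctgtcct
Myh8, chr11:67276874-67277123, plus strand: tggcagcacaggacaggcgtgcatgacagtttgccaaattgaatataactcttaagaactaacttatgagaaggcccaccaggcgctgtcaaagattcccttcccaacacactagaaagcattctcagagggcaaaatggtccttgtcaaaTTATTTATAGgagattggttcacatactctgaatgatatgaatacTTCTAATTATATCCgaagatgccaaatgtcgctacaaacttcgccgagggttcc
Myh6, chr14:54966608-54966857, minus strand: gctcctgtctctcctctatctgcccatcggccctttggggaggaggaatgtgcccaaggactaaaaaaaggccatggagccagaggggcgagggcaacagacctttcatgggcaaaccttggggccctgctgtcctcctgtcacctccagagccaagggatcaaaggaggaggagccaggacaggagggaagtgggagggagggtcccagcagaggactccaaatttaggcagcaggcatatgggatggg
Myh7, chr14:54994550-54994799, minus strand: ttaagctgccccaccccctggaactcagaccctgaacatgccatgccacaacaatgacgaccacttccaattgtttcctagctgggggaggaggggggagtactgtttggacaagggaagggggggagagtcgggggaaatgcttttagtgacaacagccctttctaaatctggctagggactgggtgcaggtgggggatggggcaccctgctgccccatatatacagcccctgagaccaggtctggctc

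The 4 chromosome 11 genes Myh2, Myh1, Myh4 and Myh8 shared the stretch TTCTAATTATATCC, 14 bases long, upstream of their starts. It lay at -125 to -112 in Myh2, -160 to -147 in Myh1, -158 to -145 in Myh4 and -54 to -41 in Myh8, counted from the RefSeq start with -1 as the last base before it. It was found as the longest stretch that these 4 windows have in common, so their holding it follows from the choice. Of 32817 RefSeq upstream windows of 250 bases, 4 (0.0122%) held it on either strand, and these were the same 4 genes. Just upstream of it, Myh1, Myh4 and Myh8 held the same match to the MEF2 consensus, TTATTTATAG, at -211 to -202, -182 to -173 and -99 to -90. Such a match was in 2.92% of all windows. The sequence TATAAA stood at -32 in Myh1, -31 in Myh4 and -29 in Myh3, and was in 12.4% of windows when both strands were searched. TTTATA within the MEF2 match is the same word on the other strand. Pairs among Myh2, Myh1, Myh4 and Myh8 shared 6 to 19 of 241 words of 10 bases, the most between Myh1 and either Myh4 or Myh8 (19 each), and all other pairs of members shared at most 2. A match is a description of letters and not a measured binding site.

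Myosin starts in muscle and heart were compared with those of the other tissues first. Close to the main start, the adult fast genes were open in muscle and both cardiac genes in heart. Within 500 bp, Myh1 and Myh2 had peaks in the 2 muscle libraries and in no other, and Myh4 had peaks in muscle and a weak one in fasting liver. Myh6, Myh7 and Myh7b had peaks there in the 2 heart libraries and in no other. Myh3 and Myh13 had none in any library, and Myh8 had a single weak one in fasting spleen, at rank 9.65.

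Myh4, the fastest isoform, ranked 89.5 in fed and 82.8 in fasting muscle within 500 bp of its start, against 25.3 in fasting liver and 0 in the other 13 libraries. A stronger fasting liver peak, at rank 72.9, lay at 0.532 kb from the Myh4 start, just outside this window. Myh1 ranked 62.2 in fed and 74.6 in fasting muscle, and Myh2 ranked 58.1 and 38.7. Myh4 thus ranked highest of the fast genes in both states. In heart, Myh6 ranked 88.3 in fed and 60.6 in fasting libraries, Myh7 83.0 and 53.7, and Myh7b 80.9 and 65.5. The groups did not overlap for these 6 genes, since both libraries of the tissue stood above all 14 others. The share of all 17363 genes with a listed peak there that showed this for muscle was 6.87%, and 3 of 9 members did (Myh1, Myh2 and Myh4). For heart it was 3.57%, and again 3 of 9 members did (Myh6, Myh7 and Myh7b). This window was chosen after the values were seen.

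**Figure D1:**
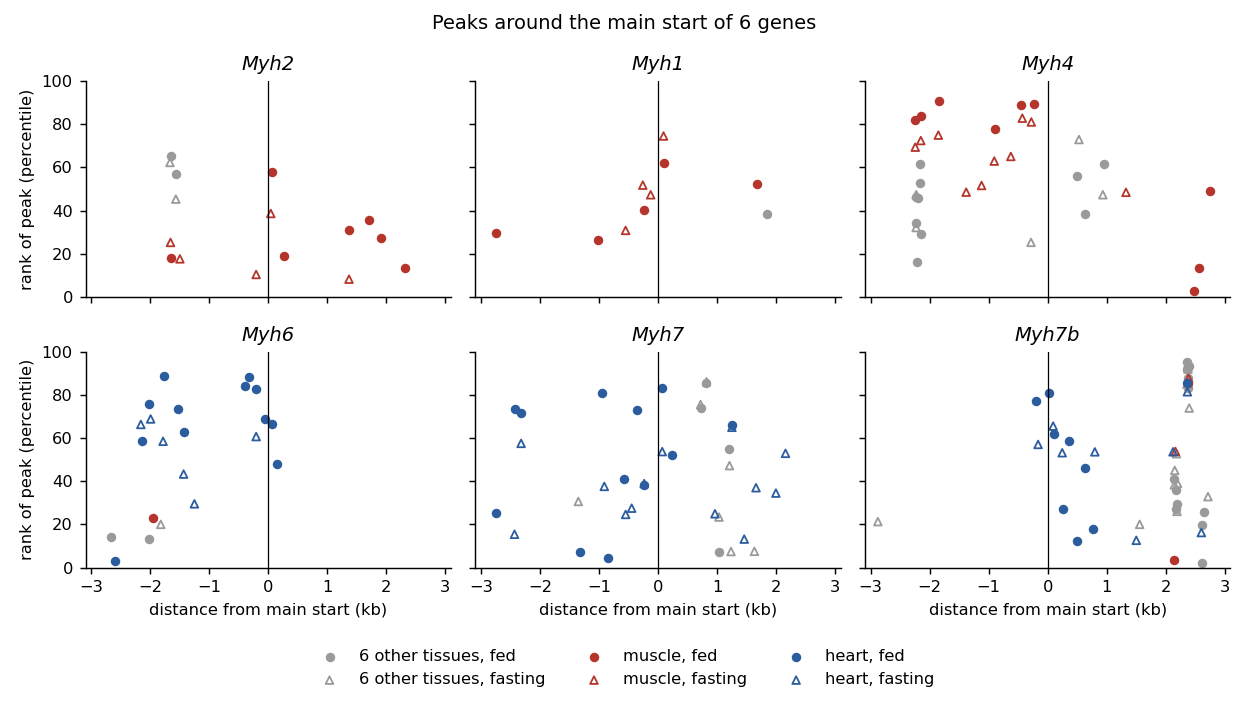
Position of each listed peak summit relative to the main start (kb, horizontal) and its rank in its library (percentile, vertical) for 6 of the genes, with colours for muscle, heart and the other tissues and filled or open symbols for fed or fasting. Within 500 bp of 0 kb the points of the fast genes are muscle, except 1 of fasting liver at Myh4 (25.3), and those of the cardiac genes are heart, for example Myh4 at 89.5 in fed muscle and Myh6 at 88.3 in fed heart.

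At the wider window of 3 kb around any annotated start, other tissues appeared at some members. Myh4 ranked 90.7 in fed and 82.8 in fasting muscle, 61.6 and 72.9 in liver, and 34.5 and 32.2 in white adipose. It also ranked 52.8 in fed brown adipose, 45.9 in fed spleen and 16.2 in fed lung, and was at 0 in the fasting libraries of these tissues and in heart and kidney. The peaks of fed liver, both adipose tissues, spleen and lung lay at -2.16 to -2.24 kb in an intron of Myhas, a noncoding gene that overlaps the region upstream of Myh4. They held 14 to 78 tags at the summit, against 338 at the start in fed muscle. The fasting liver peak at 72.9 lay instead at 0.532 kb, in an intron of Myh4, with 26 tags.

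Myh1 was at 62.2 and 74.6 in muscle, at 38.4 in fed liver through a peak at 1.86 kb in a coding exon, and at 0 elsewhere. Myh2 was at 58.1 and 38.7 in muscle and at 65.4 and 62.3 in brown adipose, where the peak lay at -1.66 and -1.67 kb between genes. Brown adipose therefore overlapped muscle for Myh2 and not for Myh1 or Myh4. Over the 64 choices of 1 fed and 1 fasting library (exact permutation test, one-sided, smallest possible p = 0.0156), the mean of muscle minus that of the other tissues was 65.6 points for Myh1 (p = 0.0156) and 64.2 for Myh4 (p = 0.0156), with Benjamini-Hochberg adjusted p = 0.203 for both over 19694 genes. For Myh2 it was 39.3 points (exact permutation p = 0.0625, adjusted p = 0.413). No gene of the genome had an adjusted p under 0.05 (0 genes, with 2575 at an unadjusted p under 0.05). With so few arrangements, that would need a large share of all genes at the smallest possible p. The adjusted values therefore cannot decide whether these differences hold. Both muscle libraries stood above the other 14 for 2 of 9 members, Myh1 and Myh4, against 6.27% of all genes.

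The cardiac genes had strong peaks outside heart at this window, at other places than the main start. Myh6 ranked 88.6 and 68.8 in heart, and 74.5 and 80.2 in kidney. The kidney peak lay 25.1 and 25.05 kb downstream of the main start, past the end of Myh6 in Gm49130, and was counted because short Myh6 transcripts start nearby. Myh6 also ranked 49.0 and 29.8 in liver, 22.8 in fed muscle, 20.01 in fasting brown adipose and 12.7 in fed spleen. Myh7 ranked 83.0 and 64.9 in heart and 85.4 and 86.0 in lung, where the peak lay 0.821 and 0.823 kb inside the gene in an intron. That lung peak was 114 bp in fed and 112 bp in fasting from another annotated start of Myh7. The other Myh7 values were 53.7 and 25.3 in liver, 39.8 and 30.6 in spleen, 12.04 in fasting brown adipose and 8.89 in fed white adipose, with none in muscle or kidney.

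Kidney therefore overlapped heart for Myh6, and lung overlapped it for Myh7. Heart minus the other tissues was 58.1 points for Myh6 (exact permutation test, one-sided p = 0.0312, adjusted p = 0.447) and 49.5 for Myh7 (exact permutation p = 0.0625, adjusted p = 0.566). Neither had an adjusted p under 0.05, nor did any other gene (0 genes, with 1759 at an unadjusted p under 0.05). The limit on the adjusted values given for muscle holds here too. Both heart libraries stood above the other 14 for 0 of 9 members, against 3.36% of all genes, and all 4 muscle and heart libraries stood above the other 12 for 0 of 9, against 0.909%.

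**Figure D2:**
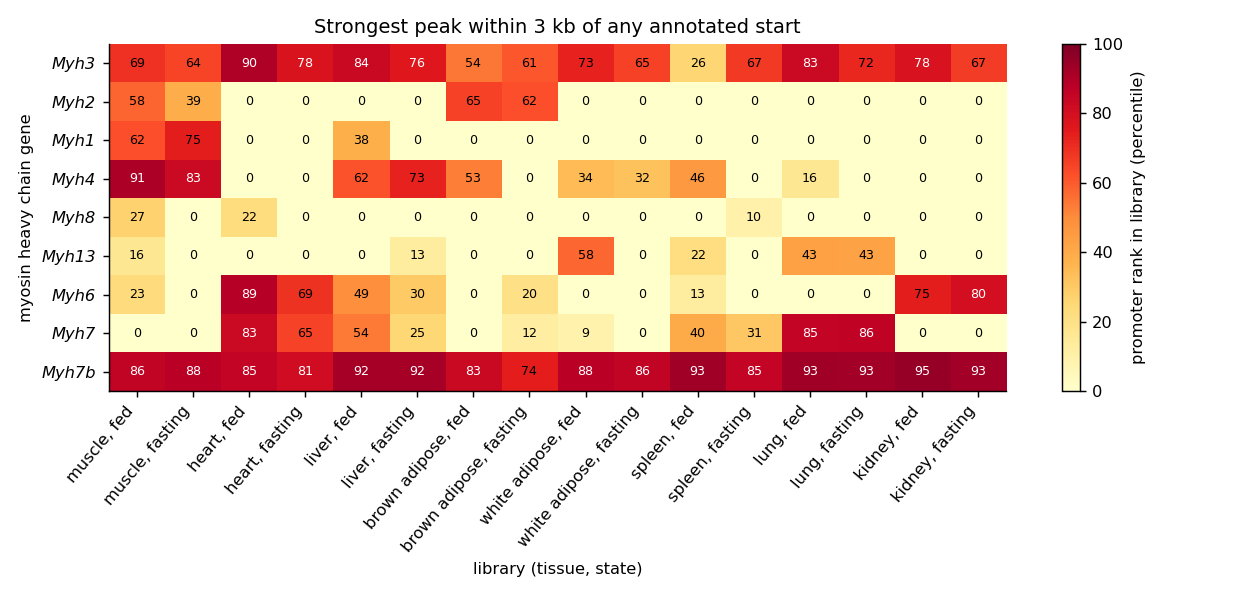
Promoter rank (percentile within a library, colour scale) of the 9 genes (vertical) in the 16 libraries (horizontal, by tissue and state), from the strongest peak within 3 kb of any annotated start. Myh3 and Myh7b have a peak in all 16 libraries, while Myh1 has one in 3 and Myh4 in 9.

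Myh3 and Myh7b had a listed peak in all 16 libraries. The Myh3 peak lay 2.07 to 2.16 kb inside the gene in an intron in every library, with ranks from 25.7 in fed spleen to 89.9 in fed heart. Heart stood 16.9 points above the other tissues for Myh3 (exact permutation test, one-sided p = 0.0156, adjusted p = 0.357), but fasting heart at 78.1 lay below fed liver at 83.5, fed lung at 83.0 and fed kidney at 78.4. The Myh7b peak that led in all 16 libraries lay about 2.4 kb inside the gene, with ranks from 73.8 in fasting brown adipose to 95.1 in fed kidney. At that place muscle and heart did not stand apart from the rest, whereas the peak at the Myh7b start was listed in heart alone. Myh8 was listed at low rank in 3 libraries, with 27.1 in fed muscle and 22.4 in fed heart, both at about -2.8 kb or further, and 9.65 in fasting spleen. Myh13 was listed in 6 libraries, at 57.8 in fed white adipose, 43.1 and 42.9 in lung, 21.5 in fed spleen, 16.4 in fed muscle and 12.6 in fasting liver, and all but the muscle peak lay over 40 kb inside the gene at internal starts.

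Genes whose promoter ranks correlated with those of a member over the 16 libraries were sought for 3 members, by Pearson correlation. The result is a description only, since all libraries of a state share mice. A high r does not mean that the ranks were of similar height. The nearest to Myh4 were Drp2 (r = 0.832), Rtl9 (r = 0.819) and Eya4 (r = 0.803), the last a transcriptional coactivator. The nearest to Myh6 were Sult4a1 (r = 0.918), Gm34302 (r = 0.904) and Msmp (r = 0.876). Those nearest to Myh7 were Ccnjl (r = 0.916), She (r = 0.909) and Tacc1 (r = 0.886). Tacc1 ranked high in all 16 libraries, from 97.5 in fed brown adipose to 99.7 in fasting heart, while Myh7 had no listed peak in muscle or kidney. Drp2 ranked 37.3 in fed and 46.8 in fasting muscle, against 23.4 and 42.1 in liver. Sult4a1 ranked 57.7 in fed and 77.7 in fasting kidney, above heart at 49.99 and 49.2, whereas Myh6 was highest in fed heart.

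Other genes of the same apparatus were read beside the members at 3 kb. Over all genes, both muscle libraries stood above the others for 6.27%, both heart libraries for 3.36%, and all 4 together for 0.909%. The lists are short and were not tested against these shares. Of 15 fast skeletal sarcomere and calcium genes, 6 had both muscle libraries above all others (Myl1, Tnnc2, Tnnt3, Atp2a1, Ryr1 and Pvalb), and 2 had all 4 muscle and heart libraries above the rest, Atp2a1 again and Pygm. Of 8 slow skeletal and ventricular genes, 1 stood above in muscle (Mybpc1), 1 in heart (Tnni1) and 1 in both (Casq2). Of 10 cardiac sarcomere genes 0 did so in muscle, 1 in heart (Nkx2-5) and 1 in both (Actc1). Among 18 regulators of fibre type and myosin, 4 did so in muscle (Six4, Tbx15, Prox1 and Vgll2) and 1 in heart (Myog), and of these Prox1 and Myog also had all 4 muscle and heart libraries above the other 12. Of the 4 smooth muscle and nonmuscle myosin heavy chain genes, 1 (Myh14) stood above in muscle, and all 4 had a peak in every library. Pax7 and Myf5, markers of satellite cells, stood above in muscle, at 79.7 and 68.1 for Pax7 and 53.3 and 57.7 for Myf5.

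The number of peaks in the gene bodies was then compared. With 10 kb on both sides, Myh4 held 64 peaks with q under 0.01 in fed and 32 in fasting muscle, and at most 6 in any other library. Myh2 held 34 and 21 in muscle against at most 5, Myh1 23 and 19 against at most 10, and Myh3 20 and 19 against at most 15. Myh6 held 45 and 27 in heart against at most 9, and Myh7 held 44 and 25 against at most 10. Both muscle libraries thus stood above the other 14 for 4 of 9 members, against 6.87% of 20526 genes, and both heart libraries for 2 of 9 members, against 0.487%. Extended bodies of neighbouring genes overlap, so that a peak can count for 2 members. The rank of the strongest peak in the extended body separated the tissues less. For Myh1 it was 94.2 in both muscle libraries and 90.6 and 91.3 in liver, and for Myh6 91.4 and 78.9 in heart and 91.01 and 92.4 in kidney.

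Peaks of q under 0.01 from all libraries were merged into 760105 regions of the genome, and each region was given its rank in every library. Across the chromosome 11 cluster, 313 kb long with its flanks, 45 of 167 regions had both muscle libraries above the other 14, which is 26.9% against 4.24% of all merged regions, and 0 regions did so for heart. In the 72.7 kb around Myh6 and Myh7, 17 of 61 regions (27.9%, against 1.96% of all merged regions) had both heart libraries above the rest, and 0 did so for muscle. Around Myh7b, 2 of 35 did so for heart and 0 for muscle. Called regions of the chromosome 11 cluster were thus muscle regions, and those of the Myh6 and Myh7 locus were heart regions.

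Most of the muscle regions of the cluster lay outside the genes. The body of Myh3 with 10 kb on both sides held 5 of them, but only 1 overlapped the gene itself. Of the 45, 6 overlapped Myh4, 5 Myh2, 2 Myh1 and 1 Myh3, while 31 overlapped no member, and 20 lay in the interval between Myh3 and Myh2. All 3 regions with the largest difference in rank between muscle and the other tissues were in that interval. The 201 bases around their summits in fed muscle are shown, because these were the places in the cluster with the clearest muscle signal. Capitals mark matches to CANNTG (the E-box, bound by MyoD and its relatives), to the MEF2 and CArG consensus sequences, and to GGAATG (the TEAD motif), all on both strands.
First region, chr11:67114973-67115173, plus strand: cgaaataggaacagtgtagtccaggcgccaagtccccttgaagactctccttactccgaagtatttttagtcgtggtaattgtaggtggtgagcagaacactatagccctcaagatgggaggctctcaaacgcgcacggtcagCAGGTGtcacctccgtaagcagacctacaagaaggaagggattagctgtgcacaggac
Second region, chr11:67125687-67125887, plus strand: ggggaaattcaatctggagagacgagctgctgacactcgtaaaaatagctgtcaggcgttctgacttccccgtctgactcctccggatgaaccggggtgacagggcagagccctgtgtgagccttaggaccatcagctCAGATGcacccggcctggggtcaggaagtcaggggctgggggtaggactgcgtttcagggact
Last region, chr11:67105916-67106116, plus strand: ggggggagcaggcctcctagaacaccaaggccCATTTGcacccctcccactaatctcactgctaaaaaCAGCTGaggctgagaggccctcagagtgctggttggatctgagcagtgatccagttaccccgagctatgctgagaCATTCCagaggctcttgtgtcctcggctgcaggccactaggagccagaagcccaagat

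The first region (chr11:67114838-67115340) overlapped an exon of 2310065F04Rik, a noncoding gene that RefSeq also calls linc-Myh. It ranked 95.8 in fed and 96.5 in fasting muscle and 8.83 in fed brown adipose, and was at 0 in the other 13 libraries. The second (chr11:67125414-67125898) lay between genes, 45.4 kb before the start of Myh2, and ranked 98.96 and 96.9 in muscle, 38.6 in fasting spleen and 5.36 in fed brown adipose. The last (chr11:67105676-67106398) lay between genes, 27.7 kb after the start of Myh3, and ranked 94.7 and 97.5 in muscle and 32.0 in fasting spleen. All 3 regions had been picked for this difference, so their place above every other library follows from the choice. Their summits held 529, 503 and 442 tags in fed muscle, more than the 338 at the start of Myh4. CANNTG was present in each, once in the first and the second and 2 times in the last, and GGAATG once in the last. Among all fed muscle peaks, 67.5% of such windows held CANNTG and 10.9% held GGAATG. The regions of the cluster that led for heart were weaker, and none had both heart libraries above the rest. The leading one (chr11:67379689-67380507) ranked 78.3 and 67.2 in heart but also 76.8 and 73.8 in lung.

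At Myh6 and Myh7, the regions that led for heart were shown likewise, by the 201 bases around the fed heart summit and with the same meaning of the capitals.
Inside Myh6, chr14:54954047-54954247, plus strand: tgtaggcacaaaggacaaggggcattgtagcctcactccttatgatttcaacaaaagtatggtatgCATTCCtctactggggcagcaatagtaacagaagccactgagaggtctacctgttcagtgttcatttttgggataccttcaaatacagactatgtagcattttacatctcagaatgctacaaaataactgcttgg
Upstream of Myh6, chr14:54968309-54968509, plus strand: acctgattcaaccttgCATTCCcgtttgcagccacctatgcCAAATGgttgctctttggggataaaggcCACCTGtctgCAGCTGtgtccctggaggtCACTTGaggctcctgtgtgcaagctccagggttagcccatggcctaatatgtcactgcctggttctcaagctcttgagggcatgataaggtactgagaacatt
Start of Myh6, chr14:54966867-54967067, plus strand: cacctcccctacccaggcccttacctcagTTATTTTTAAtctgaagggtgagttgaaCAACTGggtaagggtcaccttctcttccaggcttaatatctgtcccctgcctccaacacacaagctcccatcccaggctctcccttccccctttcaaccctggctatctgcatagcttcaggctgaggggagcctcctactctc

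The first of these (chr14:54953722-54954798) lay in Myh6, over a coding exon, and ranked 91.4 in fed and 76.8 in fasting heart and 0 in the other 14 libraries. The second (chr14:54968343-54968946) touched an exon of Mhrt, the noncoding Myheart transcript, with its fed heart summit at -1.77 kb from the main start of Myh6. It ranked 88.6 and 68.8 in heart, 22.8 in fed muscle, 20.01 in fasting brown adipose and 13.4 in fed liver. The last (chr14:54966366-54967110) covered the start of Myh6, ranked 88.3 and 60.6 in heart and 0 elsewhere, and held a match to the MEF2 consensus, as 2.57% of all fed heart peaks did. No region of this locus led for muscle with both libraries above the rest. The strongest for muscle (chr14:55002275-55002944) ranked 75.8 in fed but 1.99 in fasting muscle. At Myh7b, the region over the start (chr2:155610971-155612347) ranked 80.9 and 65.5 in heart and 0 in the other 14 libraries.

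**Figure D3:**
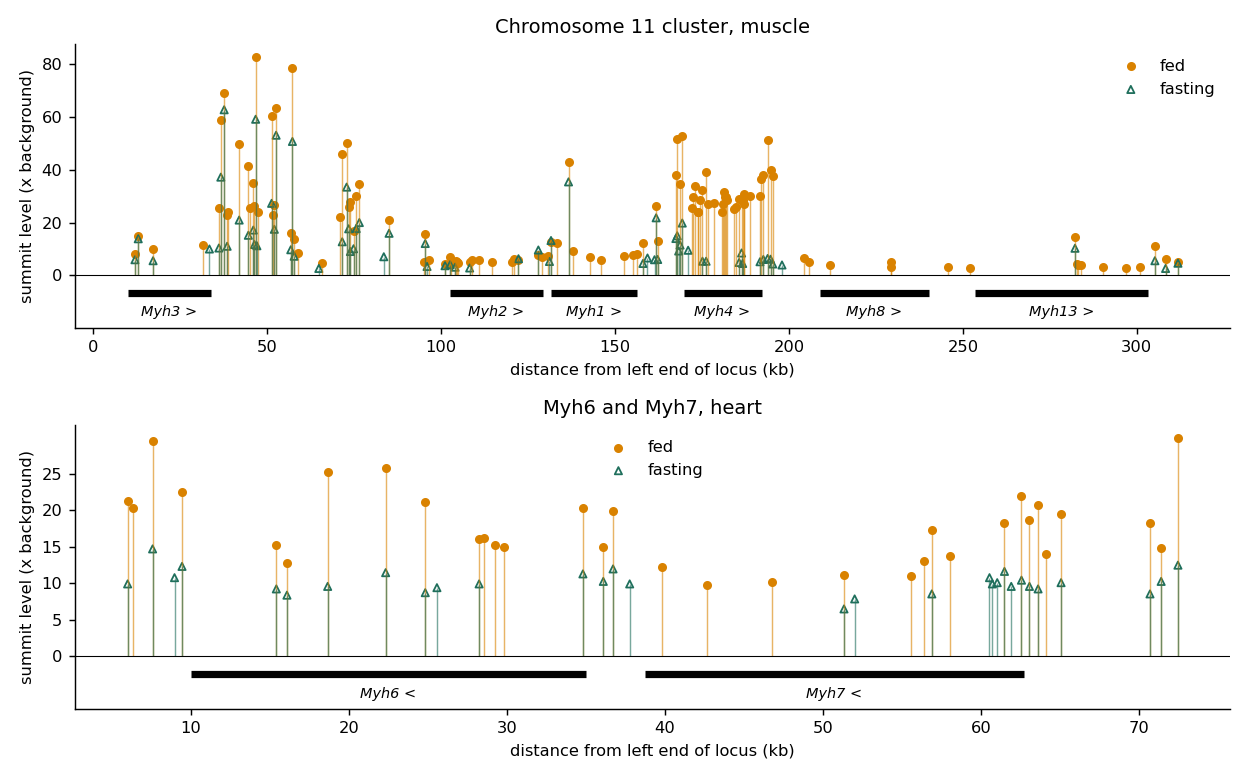
Summit level (tags over genome background, vertical) of the merged regions along each locus (kb from its left end, horizontal), fed against fasting, in muscle for the chromosome 11 cluster and in heart for Myh6 and Myh7, with the genes drawn below. Regions are lower in fasting muscle in the body of Myh4 and the 3 kb before it, with a median ratio of 0.230 over 10 regions, and between Myh4 and Myh8, with 0.138 over 4.

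Fed and fasting were then compared, with 1 library each and no replicate check. By tag level at the start in muscle and heart, Myh4 in muscle had the lowest ratio of the members compared. At its start, 338 tags in fed and 196 in fasting muscle became levels of 52.9 and 18.6 times the genome background, a ratio of 0.351 (exact 95% interval 0.293 to 0.420, counting error only). A second summit at the same start, with 320 and 209 tags, gave 0.395 (0.330 to 0.472). Both intervals lay far below 1, whereas the median ratio of all promoters in muscle was 0.985. A level counts all tags at a summit, including the broad signal around it. The deposited fold over the tags expected around the summit went the other way. For the strongest peak within 500 bp it was 3.52 in fed and 5.03 in fasting muscle, at different summits.

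The other fast genes did not share that size of difference. Myh1 had 81 tags in fed and 139 in fasting muscle, levels of 12.7 and 13.2, and a ratio of 1.04 (0.784 to 1.38). Its second summit gave 0.807 (0.565 to 1.16). Both intervals for Myh1 included 1. Myh2 had 43 and 42 tags, levels of 6.73 and 3.98, and a ratio of 0.591 (0.377 to 0.926), based on few tags. Myh4 was thus above Myh1 in both states, by level, but by much less in fasting muscle.

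The same direction was seen in heart, at smaller size. Myh7 had 108 tags in fed and 61 in fasting heart at its start, levels of 22.0 and 10.5, and a ratio of 0.476 (0.342 to 0.657). Other summits there gave 0.485 and 0.629. Myh6 had 88 and 66 tags, levels of 17.9 and 11.3, and a ratio of 0.632 (0.452 to 0.879). The 3 summits at the start of Myh7b gave 0.614 (0.386 to 0.970), 0.821 and 0.924. The median of all promoters in heart was 0.833, which lay inside the intervals of Myh6 and Myh7b and outside that of the main Myh7 summit.

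The neighbourhood level, the number of tags that the peak caller expected from up to 10 kb around a summit over the genome background, showed the contrast over a longer stretch. For each gene, the highest value among listed peaks within 3 kb of any start was taken in each library. Fed and fasting values of a gene can thus come from different peaks. At Myh4 the neighbourhood level was 18.8 in fed and 3.99 in fasting muscle. The ratio of 0.213 was the lowest of the 15264 genes with a promoter peak in both libraries. In fed muscle Myh4 stood in place 23 from the top of 15782 genes, and in fasting muscle in place 4831 of 15490. Myh1 had 5.45 and 3.01 (ratio 0.553, place 45 from the lowest), Myh2 2.10 and 1.33 (0.634, place 115) and Myh3 1.62 and 1.05 (0.645, place 136), while Myh7b stood at 0.943. Lower by 1.5 times or more were 4 of the 5 members with a peak in both, against 1.17% of all genes. In heart, Myh7 had 9.80 and 5.74 (ratio 0.585, place 9 of 15599 from the lowest) and Myh6 9.09 and 5.75 (0.633, place 17), against 0.796 for Myh7b and 1.01 for Myh3. Thus 2 of 4 members were lower by 1.5 times or more in heart, against 0.179% of all genes. In the fed heart these neighbourhoods stood in place 4 (Myh7) and 11 (Myh6) from the top. At the paired summits of the start, the values of Myh6 were 7.10 in fed and 5.75 in fasting heart (ratio 0.810). Myh6 was thus not lower by 1.5 times there. Those of the main Myh7 summit were 9.52 and 5.43 (0.570), and those of the main Myh4 summit in muscle 14.9 and 3.88 (0.260). The p of a peak, and so its rank, is computed against its neighbourhood. The promoter rank of Myh4 in muscle differed by -7.90 points, between a fed peak at -1.85 kb and a fasting peak at -0.428 kb. The cause of this smaller difference in rank was not tested.

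**Figure D4:**
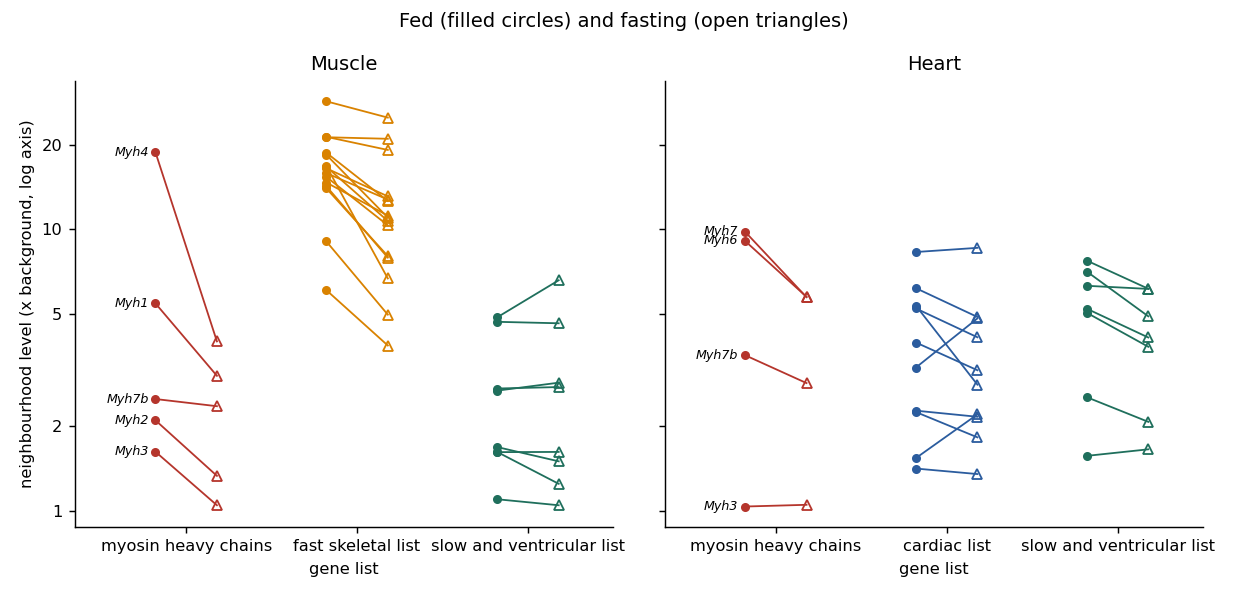
Neighbourhood level (tags expected around the summit over genome background, logarithmic vertical axis) of the members and of 2 gene lists (horizontal) in fed (filled circles) and fasting (open triangles) muscle and heart, each gene joined by a line. Myh4 stands at 18.8 in fed and 3.99 in fasting muscle, and Myh7 at 9.80 and 5.74 in heart. Each value is the highest among listed peaks within 3 kb of any start in that library.

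The merged regions showed where the contrast lay along the cluster. In the body of Myh4 and the 3 kb before it, 10 regions were present in both muscle libraries, all 10 were lower by 1.5 times or more in fasting, and their median ratio of levels was 0.230 (0.136 to 0.374). Another 20 regions were in fed alone there and 2 in fasting alone. Over the genome, 40421 regions were in fed muscle alone and 42262 in fasting muscle alone, beside 108420 in both. The fed list stopped at a -log10 p of 3.45 and the fasting list at 4.65. Peaks between these strengths could be listed in fed muscle only. Between Myh4 and Myh8, 4 regions had a median ratio of 0.138 (0.113 to 0.156). Between Myh1 and Myh4 the median was 0.454 over 3 regions, in Myh1 0.932 over 2, in Myh2 0.713 over 6 and in Myh3 0.736 over 3. The interval between Myh3 and Myh2 had a median of 0.596 over 24 regions, with 18 lower by 1.5 times or more. Over the genome the median was 0.995 in 108420 regions of muscle, with 8.96% lower by 1.5 times or more.

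In the 3 leading muscle regions, levels were 82.8 in fed and 59.2 in fasting, 78.7 and 50.8, and 69.2 and 62.8, so these regions differed less between the states than the start of Myh4 did. They were picked by mean rank over both muscle libraries, which favours regions that are high in both states. In heart, the median ratio was 0.602 over 9 regions of Myh6, 0.513 over 7 of Myh7 and 0.794 over 4 of Myh7b, with 8, 7 and 1 lower by 1.5 times or more. Over the genome the median in heart was 0.928 in 83362 regions, with 8.91% lower by that much.

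The apparatus around the myosins was read the same way in muscle. The 15 fast skeletal genes had a median level ratio of 0.868, from 0.642 (Mybpc2, fast myosin-binding protein C) to 1.01 (Mylpf, fast regulatory light chain), and 14 of 15 were below 1. Their neighbourhoods had a median ratio of 0.673, with 7 of 15 lower by 1.5 times or more, among them Mybpc2 at 0.398, Myl1 (fast essential light chain) at 0.549 and Pvalb (parvalbumin, a calcium buffer of fast fibres) at 0.557. The 8 slow genes had medians of 1.02 for the level and 0.995 for the neighbourhood, with 0 lower by 1.5 times. For the 18 regulators the medians were 0.963 and 0.959, with 1 lower (Myod1, at 0.638). The fast list lay nearer to Myh4 in direction than the slow list, but no fast gene went as low as Myh4. In heart, the 10 cardiac genes had medians of 0.815 and 0.882, and the 7 slow and ventricular genes with a peak in both libraries 0.798 and 0.794. Which muscles entered the fed and the fasting pool is not given, and a different share of fast fibres in the pools cannot be told apart from a change with fasting.

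By rank, the states differed at members in every tissue. In muscle, 5 of the 8 members with a peak in either state moved by 10 points or more, against 11.7% of all genes. Myh1 was 12.4 points higher in fasting, the largest difference upward, and Myh8 differed by -27.1, the largest downward, beside Myh6 at -22.8, Myh2 at -19.4 and Myh13 at -16.4. The peaks of Myh8, Myh13 and Myh6 were weak in fed muscle and not listed in fasting muscle. In heart, 4 of 5 moved, against 19.6%, all lower in fasting, namely Myh8 at -22.4, Myh6 at -19.9, Myh7 at -18.04 and Myh3 at -11.8. No member was higher in fasting heart.

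In the other tissues the differences went both ways. In liver 5 of 7 moved (25.3% of all genes), with Myh4 and Myh13 higher and Myh1, Myh6 and Myh7 lower in fasting. In brown adipose 3 of 6 moved (15.6%), with Myh6 and Myh7 higher and Myh4 lower. The fasting peaks of Myh6 and Myh7 had a -log10 p of 3.62 and 3.18. The fed list stopped at 7.11, so peaks of that strength could not be listed in fed brown adipose. In white adipose 1 of 5 moved (18.7%), Myh13 being lower. In spleen 4 of 7 moved (19.1%), with Myh3 higher and Myh4, Myh13 and Myh6 lower. In lung 2 of 5 moved (12.1%), Myh3 and Myh4 being lower, and in kidney 1 of 3 (9.48%), Myh3 being lower. In liver, both adipose tissues, spleen and lung, some of these moves came from a peak listed in 1 state only.

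Over the 8 tissues, no member had an adjusted p under 0.05 for fed against fasting, but the test could hardly have given one. The exact sign-flip permutation test (two-sided, smallest possible p = 0.00781) gave 0 of 19694 genes with an adjusted p under 0.05, which is 0% and included 0 of 9 members, and 1034 genes with an unadjusted p under 0.05. Of the members Myh7b had the lowest p, with a mean change of -3.06 points (exact permutation p = 0.0469, adjusted p = 0.893), lower in 6 tissues and higher in 2.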

How the data were processed

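Peak lists of 16 ATAC-seq libraries were used. Per the labels and the study's methods, the authors aligned reads to GRCm38 with Bowtie2, removed unmapped and duplicate reads and called peaks with MACS2, and took q under 0.01 as significant. No control library is named. The deposited lists are nearly equal in length and do not stop at that threshold, with 69.9% to 100% of a list's peaks under it. The deposited fold enrichment is a ratio of summit tags plus 1 to expected tags plus 1, and the deposited -log10 p and -log10 q come from a Poisson test that the authors ran within each library. These values are not comparable between libraries as they stand. Fold and p were solved together for the summit tags and the expected tags, and at least 99.999% of the values per library gave a whole tag number within 0.01. Levels are tags over the genome background of the library.

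Ranks, calls and levels were computed with Python 3.11.15, numpy 2.4.6, pandas 2.3.3 and scipy 1.17.1, and figures with matplotlib 3.10.9. Fed and fasting summits were paired where each was the nearest to the other within 150 bp. Ratios of tags have exact 95% binomial intervals that cover counting error only. Tests were exact permutation tests over libraries, with Benjamini-Hochberg adjustment over all genes, and speak only of these pools of mice. The recovery of tags, the calls of libraries above all others and the permutation tests were first tried on simulated data, and the other steps were not. Members and gene lists were chosen with earlier results of these data known. All members, all list genes, the 3 genes nearest in pattern to Myh4, Myh6 and Myh7, and the leading 3 regions of each locus and tissue could be named, and the text gives a choice of these. Alternatives covered the window, the starts used, q, merged regions, ranking by fold, equal depth, the 50000 strongest peaks and each state alone. Ranking by summit tags, the 500 bp window, scaling by the median promoter, neighbourhood levels and the alternatives for merged regions were added after the data were seen.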

Additional observations from a re-analysis of the deposited data

Results flagged for a closer look

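The intronic Myh3 peak changed in opposite directions between tissues. Fasting minus fed was -11.8 points of rank in heart, -11.2 in lung and -11.8 in kidney, but 41.8 in spleen, where the peak held 15 tags in fed and 23 in fasting. Each value rests on 1 library per state, and the difference between tissues was not tested.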

How the results depend on the processing

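Of 161 values under alternatives, 126 were labelled the same, 22 moved, 6 stronger, 5 weaker and 2 reversed. The labels do not always follow the size of a value. Muscle minus other tissues for Myh2 (39.3) was labelled the same at 0 with the 50000 strongest peaks. With summit tags it was labelled stronger at 32.6. For Myh1 (65.6) this difference also became 0 with the 50000 strongest peaks. The count of members with both muscle libraries above all others (2) became 0 when peaks were ranked by fold and 0 with the 50000 strongest peaks. For heart the count (0) became 1 with a window of 1000 bp, 1 with main starts only, 2 with summit tags, 3 within 500 bp of the main start, 2 with fed libraries only and 1 with fasting libraries only, and for both tissues together (0) it became 1 with fed libraries only. Heart minus other tissues for Myh7 (49.5) reversed to -11.3 ranked by fold and -12.2 with the 50000 strongest peaks. Fold divides by the tags expected around a summit. The cause of either reversal was not tested. Members that moved by 10 points (5 in muscle, 4 in heart, 25 over all tissues) numbered 3 in muscle and 14 in all with 1000 bp, 1 and 5 with the 50000 strongest peaks, and 2 and 6 within 500 bp, and 2 in heart with summit tags. With fed libraries only, which leaves fewer libraries to stand above, the called regions went from 45 to 107 in the chromosome 11 cluster, from 17 to 31 at Myh6 and Myh7 and from 2 to 5 at Myh7b, and with fasting libraries only from 17 to 27 at Myh6 and Myh7. Shallow libraries and limited lists set what could be listed, so an unlisted peak is not shown to be absent.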
